A study of Homo sapiens with 4 samples.

Results

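Replication-dependent histone genes are the genes that a dividing cell switches on in S phase to package newly made DNA, and their transcripts were examined in an RNA immunoprecipitation sequencing (RIP-seq) experiment on YTHDC1. They were taken by name, as every listed transcript whose gene symbol was H1-1 to H1-6 or belonged to the H2AC, H2BC, H3C or H4C series, with pseudogene transcripts left out. The rule found 63 of the 75165 listed transcripts, and these came from 47 of 20298 genes. The genes fell into the linker family H1 with 4 genes and the core families H2A with 13, H2B with 14, H3 with 8 and H4 with 8.

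The cells were MDA-MB-231, an established line of triple negative breast cancer, transduced with a lentivirus carrying 3x Flag-YTHDC1 at an MOI of 4 and kept in 2 μg/ml puromycin. The study's methods state 4 days of puromycin for cells in which YTHDC1 was knocked out, and no time for cells with this vector. YTHDC1 is the nuclear reader of N6-methyladenosine, a methyl mark on RNA. The IP group held 2 libraries of RNA recovered with an anti-Flag antibody from nuclear lysate of UV-crosslinked cells. The input group held 2 libraries from the same kind of lysate, which the labels nevertheless name total RNA. Every library therefore came from cells that overexpressed the tagged protein, and no library of unmodified cells was analysed here. For each transcript the level used was its normalized count averaged over the 4 libraries, IP and input together. The table also holds the authors' own comparison of IP with input, which was not used here, and no value of a single library, so neither depth, spread between replicates nor a difference between IP and input was computed. All levels below are the authors' means over the 4 libraries, given as a description with no test. Differences between neighbouring levels could not be set against replicate error.

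Histone proteins wind DNA into nucleosomes, whose core holds H2A, H2B, H3 and H4, while H1 binds the linker DNA between nucleosomes. Replication-dependent histone mRNAs differ from other mRNAs in metazoan cells, since most lack introns and end in a conserved stem-loop in place of a poly(A) tail. The stem-loop is bound by SLBP, the downstream element is recognized by the U7 snRNP, and the mRNAs are degraded rapidly when DNA synthesis stops. Their genes are clustered and are transcribed in nuclear histone locus bodies organized by NPAT. The RIP-seq RNA was depleted of ribosomal RNA before library construction with a stranded mRNA kit. Whether poly(A) RNA was also selected is not given in the sources used here. Such a step would lose RNAs without a poly(A) tail, so the levels below may not be the abundance of all histone RNA in the nuclear lysate, and its part in them was not tested.

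The bases before the start of the most abundant genes of the H1, H2A and H4 families, and of H3C14, an H3 gene whose start is nearly identical in sequence to that of H3C15, are printed as examples of the sequences ahead of these genes. They do not stand for their families, and the counts over all genes with an entry are given with the motifs. They were read from the RefSeq promoter table on GRCh38.p14, 5′ to 3′ on the strand of the gene, and cover the 250 bases that end just before the start. Capitals mark matches, on either strand, to TATAAA (the TATA box), CCAAT (the CCAAT box), ATTTGCAT (the octamer) or AAACACA (the H1 box). The intervals are chr6:26056471-26056720 on the minus strand for H1-2, chr6:26156079-26156328 on the plus strand for H1-4, chr1:149842751-149843000 on the minus strand for H2AC18, chr1:149841209-149841458 on the minus strand for H3C14 and chr1:149832407-149832656 on the plus strand for H4C14.
H1-2: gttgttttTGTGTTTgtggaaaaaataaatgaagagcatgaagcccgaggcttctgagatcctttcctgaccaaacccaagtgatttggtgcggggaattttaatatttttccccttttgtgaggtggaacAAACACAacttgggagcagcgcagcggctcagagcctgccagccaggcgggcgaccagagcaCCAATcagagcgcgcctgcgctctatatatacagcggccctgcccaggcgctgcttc
H1-4: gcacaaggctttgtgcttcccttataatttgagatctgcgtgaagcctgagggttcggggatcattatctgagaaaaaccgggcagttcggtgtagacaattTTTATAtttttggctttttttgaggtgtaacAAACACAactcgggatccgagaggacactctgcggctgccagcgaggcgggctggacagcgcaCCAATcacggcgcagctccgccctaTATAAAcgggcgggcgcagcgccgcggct
H2AC18: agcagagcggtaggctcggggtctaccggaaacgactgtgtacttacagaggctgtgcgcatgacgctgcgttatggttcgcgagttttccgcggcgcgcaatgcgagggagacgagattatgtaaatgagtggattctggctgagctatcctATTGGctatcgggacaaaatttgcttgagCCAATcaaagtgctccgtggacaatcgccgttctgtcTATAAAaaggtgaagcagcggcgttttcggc
H3C14: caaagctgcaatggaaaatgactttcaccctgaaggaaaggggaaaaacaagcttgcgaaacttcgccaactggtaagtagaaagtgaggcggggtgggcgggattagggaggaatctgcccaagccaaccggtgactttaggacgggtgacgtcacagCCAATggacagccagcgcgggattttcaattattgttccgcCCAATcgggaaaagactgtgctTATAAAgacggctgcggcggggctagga
H4C14: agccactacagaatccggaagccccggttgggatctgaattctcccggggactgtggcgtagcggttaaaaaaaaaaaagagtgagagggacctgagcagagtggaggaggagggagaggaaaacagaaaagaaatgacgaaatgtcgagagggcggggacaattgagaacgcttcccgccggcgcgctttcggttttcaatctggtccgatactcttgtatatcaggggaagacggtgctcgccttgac
Both H1 genes carried the H1 box upstream of a CCAAT box. The H2AC18 and H3C14 windows each held 2 CCAAT matches ahead of a TATA box near the start, and the H4C14 window held none of the 4 motifs.

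The histone genes were abundant among the listed RNAs. Their summed level was 294963 mean normalized counts, which was 0.884% of the table's total of 33361205, while they made up 0.0838% of listed transcripts. By gene they were 47 of 20298, a larger share than by transcript. The median histone gene stood at 3395 mean normalized counts (quartiles 1467 and 7137), and the median over all genes was 227 (quartiles 25.5 and 1106). At least 1000 counts were listed for 37 of the 47 histone genes (78.7%) and for 26.9% of all genes. At least 10000 counts were listed for 5 histone genes (10.6%) and for 2.20% of all genes. These counts are not divided by length, and histone transcripts are short. Levels were not uniform, since 6 genes stayed under 100 counts and 4 lay between 100 and 1000. The 6 low genes were H1-1, H1-6, H2AC16, H2BC1, H2BC10 and H4C15.

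To compare genes, levels were divided by the length of the gene in RefSeq for the 41 genes that span under 1000 bases (387 to 787 bases). On this scale the median was 6252 mean normalized counts per kilobase, the lowest gene was H1-1 at 7.09 and the highest was H1-2 at 74303. The H2A genes held 32.4% of the summed level per kilobase, H1 28.9%, H3 18.4%, H4 13.0% (7 genes) and H2B 7.26% (9 genes). The H2B share is low in part by construction, because 5 H2B genes with longer annotated spans, its 4 highest among them, have no value per kilobase. In counts not divided by length, over all 47 genes, H1 held 34.1% of the sum, H2A 25.6%, H2B 17.8%, H3 14.4% and H4 8.06%, so that H2B was the third and not the last. The family medians per kilobase were 29379 for H1, 12864 for H3, 8567 for H2A, 5298 for H4 and 2723 for H2B. The H1 median lies midway between H1-6 at 7.95 and H1-4 at 58750, with no H1 gene near it, and the H2B median leaves out its 4 highest genes, so these medians do not rank the families.

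**Figure D1:**
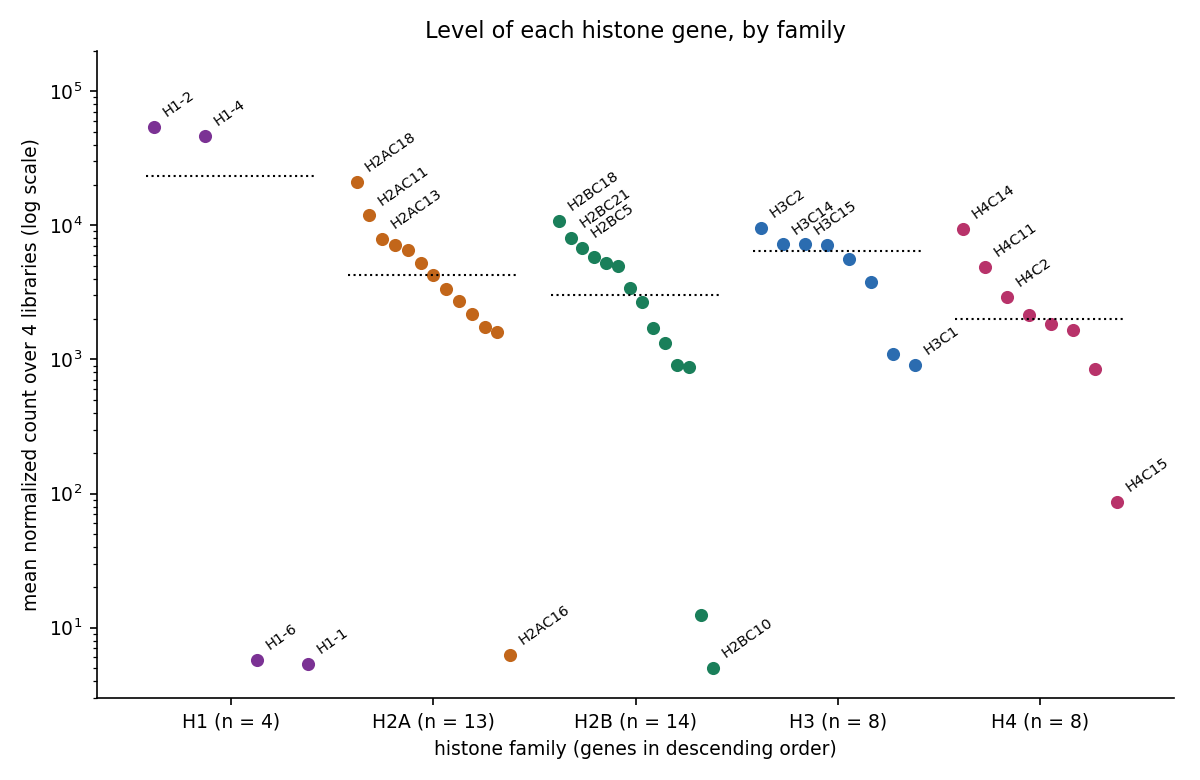
Mean normalized count of each histone gene over the 4 libraries (log axis, not divided by length), by family, with genes in descending order and a dotted line at the family median. Most genes lie above 1000, while H1-1, H1-6, H2AC16, H2BC1 and H2BC10 lie at 12.5 or lower.

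The linker histones split into a high and a low pair. H1-2 stood at 54316 mean normalized counts, rank 38 among all genes, and H1-4 at 46236, rank 46, and together they made up 34.1% of the histone sum. Both are somatic linker histones found in most cell types. Per kilobase H1-2 reached 74303 and H1-4 58750, so H1-4 was at 0.791 of H1-2. H1-1, a somatic variant with narrow tissue distribution, was listed at 5.36 counts (7.09 per kilobase). H1-6, the testis linker histone, was listed at 5.75 counts (7.95 per kilobase).

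Among the genes of H2A, which pairs with H2B in a dimer of the nucleosome core, 12 of 13 reached 1000 counts. H2AC18 was the highest at 21106 mean normalized counts (39598 per kilobase), followed by H2AC11 at 11844 (24024 per kilobase) and H2AC13 at 7862 (15883 per kilobase). H2AC16 was the lowest at 6.30 counts (13.1 per kilobase). No H2A gene was listed between H2AC16 and H2AC15, which stood at 1608 counts (3241 per kilobase). Between these ends, H2AC6 stood at 13715 mean normalized counts per kilobase, H2AC17 at 13417, H2AC12 at 11479 and H2AC20 at 8567. H2AC19, H2AC4, H2AC21 and H2AC14 followed at 6252, 5197, 4381 and 3642 per kilobase. The listed H2A genes thus had a single low member, and the others spread gradually. RefSeq holds 17 H2A genes under the name rule, and the levels of those without a row are unknown.

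The H2B genes ran from 5.04 to 10814 mean normalized counts. H2BC18 was the highest at 10814 counts, then H2BC21 at 8066 and H2BC5 at 6752, and all 3 have annotated spans over 1000 bases (29682, 2224 and 13229). Most of the H2BC18 level was a processed transcript, and its main coding transcript, at 4108 counts, lay below H2BC21, H2BC5, H2BC12, H2BC17 and H2BC4. Of the H2B genes with short spans, H2BC17 had the highest level per kilobase at 11218. H2BC15 and H2BC11 came next at 6264 and 5592 mean normalized counts per kilobase, and H2BC13, H2BC3, H2BC6 and H2BC14 were at 3826, 2723, 1933 and 1871. H2BC12 and H2BC4, which span 8566 and 10757 bases, were at 5753 and 4987 counts. H2BC10 was the lowest at 5.04 counts (10.5 per kilobase). H2BC1, which encodes the H2B of the testis, was listed at 12.5 counts (21.9 per kilobase).

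The listed H3 genes had the smallest range of the 5 families in counts, with the highest gene 10.6-fold above the lowest. The H4 range of 108-fold rests on H4C15, which had no coding transcript among those listed. The next lowest H4 gene, H4C1, was at 843 counts, so the small range does not set H3 apart from the other H4 genes. H3, with H4, forms the tetramer at the centre of the nucleosome. H3C2 was the highest at 9614 mean normalized counts (18815 per kilobase), followed by H3C14 at 7195 (13784 per kilobase) and H3C15 at 7189 (13878 per kilobase). H3C3 was close to these at 14723 per kilobase, and H3C13, H3C10 and H3C12 were at 11944, 7780 and 2137. H3C1 was the lowest at 908 counts (1787 per kilobase). H4C14 led the H4 genes at 9365 counts (23649 per kilobase), with H4C11 at 4904 (12606 per kilobase) and H4C2 at 2921 (7527 per kilobase) next. H4C3, H4C8 and H4C12 lay together at 5298, 4518 and 4289 per kilobase, and H4C1 was at 2097. H4C15 was lowest at 86.8 counts.

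Most of the histone genes had a single listed transcript, 36 of 47 (76.6%), against 37.7% of all genes. Of the 63 histone transcripts, 54 were annotated as protein-coding (85.7%, against 52.3% of all transcripts), 6 as nonsense-mediated decay (NMD; 9.52% against 8.65%) and 3 as processed transcript (4.76% against 12.7%). The protein-coding transcripts carried 97.5% of the histone sum, the processed transcripts 2.29% and the NMD transcripts 0.198%. These annotation classes come from GENCODE and are not measurements of decay.

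Among the 11 genes with several transcripts, H2BC18 and H4C15 were led by a transcript not annotated as protein-coding. H4C15 had NMD transcripts alone, at 48.7 and 38.2 mean normalized counts. In H2BC18 the processed transcript H2BC18-203 was listed at 6677 mean normalized counts, 61.7% of the gene, while its coding transcript H2BC18-201 was at 4108, 38.0%. H2BC18-204 and H2BC18-205 were at 14.7 and 14.2 counts. In H2BC15 a pair of coding transcripts shared most of the level, with H2BC15-204 at 1700 counts (50.1%) and H2BC15-201 at 1420 (41.8%), and the NMD transcript H2BC15-202 was at 269 (7.92%). In the remaining genes with a coding transcript, 1 coding transcript held from 86.7% of the level (H2BC6) to 99.7% (H2BC4). Counts are split between overlapping transcripts by an estimate, so a share between transcripts that overlap is less certain than the gene's sum.

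**Figure D2:**
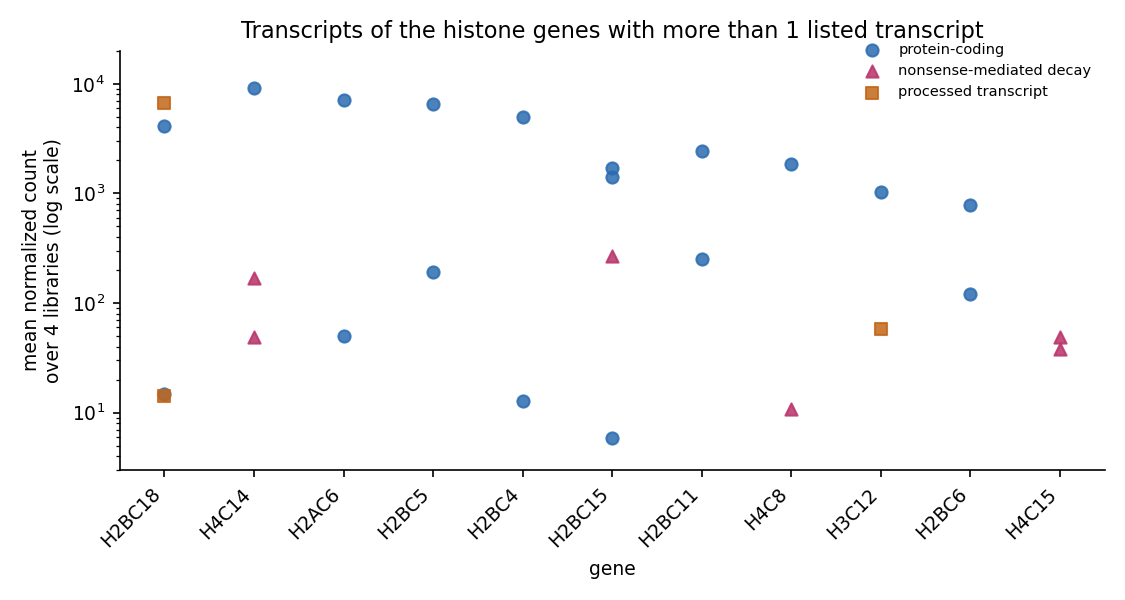
Mean normalized count over the 4 libraries (log axis) of each transcript of the 11 histone genes with more than 1 listed transcript, with the annotated transcript type given by the marker. In H2BC18 the processed transcript at 6677 lies above the coding transcript at 4108, and H4C15 has NMD transcripts alone.

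Some histone genes are known as near-identical copies, and a read that fits both copies cannot be placed with certainty. The transcribed sequences were not compared here, only the starts. On chromosome 1, the 300-base RefSeq windows around the starts of H2AC18 and H2AC19 shared a run of 299 identical bases, those of H3C14 and H3C15 a run of 296, and those of H4C14 and H4C15 all 300. The levels within these pairs were not alike in the same way. H3C14 and H3C15 were at 7195 and 7189 mean normalized counts, a ratio of 1.00. H2AC18 and H2AC19 were at 21106 and 3339, a ratio of 6.32, with annotated spans of 533 and 534 bases. H4C14 was at 9365 and H4C15 at 86.8, a ratio of 108, but H4C15 has no coding transcript among those listed. The H4C14 transcript H4C14-202 and the H4C15 transcript H4C15-203 had the same value, 48.7. Summed over each pair, the levels were 24445 for H2AC18 and H2AC19, 14384 for H3C14 and H3C15 and 9452 for H4C14 and H4C15.

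The genes lay in 4 clusters, taken as runs of RefSeq histone genes less than 500000 bases apart. The largest, on chromosome 6 from 25726063 to 26285534, held 19 listed genes of 34 in RefSeq and 50.8% of the histone sum, with a median of 2146 mean normalized counts. H1-2 and H1-4 made up 100552 of its 149847 counts, and without them the cluster held 25.4% of the sum of the other histone genes. The cluster on chromosome 1 from 149782689 to 149887965 had all 11 of its genes listed, 26.8% of the sum and a median of 7189. On chromosome 6, the cluster from 27132316 to 27147562 had 4 of 5 genes listed, 8.65% of the sum and a median of 5499, and the cluster from 27807479 to 27893891 had 13 of 16, 13.7% and a median of 1734. All 4 clusters held both H2A and H2B genes, and the linker genes H1-1, H1-2, H1-4 and H1-6 were in the largest. Of the 69 RefSeq genes whose symbols match the rule, 47 were listed under those symbols. The table lists 2 more under the older symbols H4-16 and H2BU1, which the name rule leaves out, and 20 are not analysed here.

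Many H2A and H2B genes start back to back, on opposite strands, with a short gap between the starts. RefSeq held 11 such pairs, and both genes were listed in 7, with gaps of 193 to 247 bases. The gaps of the H2BC4 and H2AC6 pair (chr6:26123927-26124171, plus strand) and of the H2BC11 and H2AC11 pair (chr6:27132796-27133042, plus strand) are printed because 1 stretch of DNA precedes both genes. H2AC6 and H2AC11 start after the last base, and H2BC4 and H2BC11 start before the first base on the opposite strand. Capitals mark the same 4 motifs on either strand, and adjoining matches can overlap.
H2BC4-H2AC6: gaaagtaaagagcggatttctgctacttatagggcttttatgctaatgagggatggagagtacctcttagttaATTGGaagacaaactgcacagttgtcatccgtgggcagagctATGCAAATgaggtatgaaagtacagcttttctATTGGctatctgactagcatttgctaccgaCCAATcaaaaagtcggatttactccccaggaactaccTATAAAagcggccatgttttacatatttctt
H2BC11-H2AC11: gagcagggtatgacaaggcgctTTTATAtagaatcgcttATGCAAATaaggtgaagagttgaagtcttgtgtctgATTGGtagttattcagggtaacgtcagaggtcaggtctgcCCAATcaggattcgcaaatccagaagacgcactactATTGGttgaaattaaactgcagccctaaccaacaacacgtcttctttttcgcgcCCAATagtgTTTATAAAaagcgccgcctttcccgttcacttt
Both gaps held an octamer on the strand of the H2B gene, read here as ATGCAAAT. The TATAAA motif stood near the H2A start in both, and a TATAAA match near the H2B start, read here as TTTATA, was present in the H2BC11 gap.

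The partners of a pair were not at equal levels. In 5 pairs both genes span under 1000 bases. With transcripts summed by gene, the H2A gene was the higher per kilobase in 4 of these and the H2B gene in 1. H2AC11 was at 24024 and H2BC11 at 5592 mean normalized counts per kilobase, a ratio of 4.30, and H2AC13 was at 15883 and H2BC13 at 3826, a ratio of 4.15. The ratio was 1.95 for H2AC14 over H2BC14, while H2AC17 and H2BC17 were closer, at 13417 and 11218 per kilobase. In the pair of H2AC15 and H2BC15, the H2B gene was the higher, at 6264 per kilobase against 3241. The H2BC15 value sums 4 listed transcripts. Its most abundant transcript alone, at 1700 counts over 542 bases, would lie slightly below H2AC15, at 1608 counts over 496 bases, per kilobase. The other 2 pairs have an H2B gene with a longer span and are given as counts, 7118 for H2AC6 beside 4987 for H2BC4, and 4232 for H2AC20 beside 8066 for H2BC21.

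**Figure D3:**
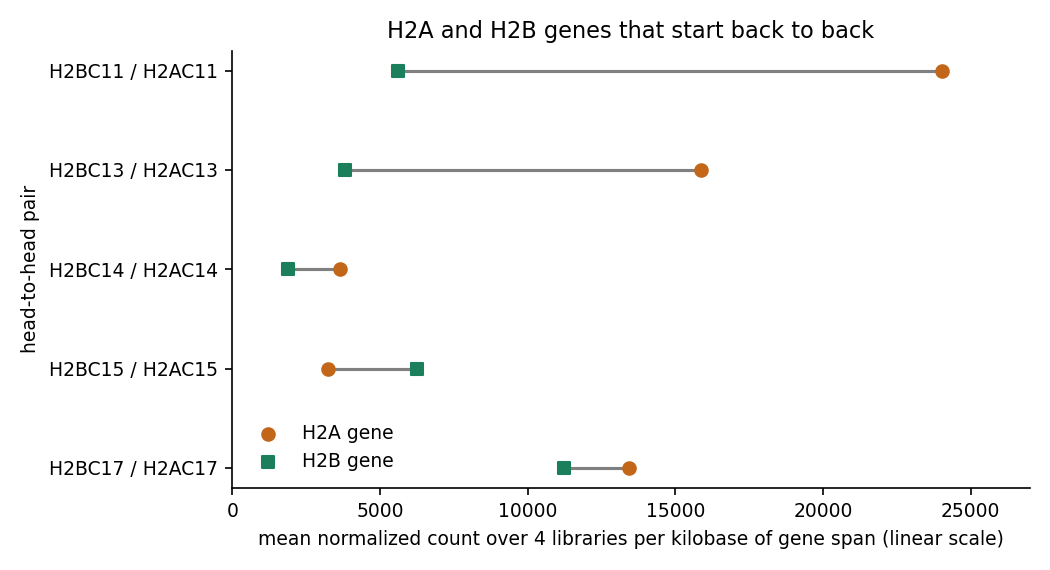
Mean normalized count per kilobase of gene span (linear axis) of the H2A gene (circle) and the H2B gene (square) of the 5 head-to-head pairs in which both genes span under 1000 bases. The H2A gene lies to the right in 4 pairs, by up to 4.30-fold, and the H2B gene in H2BC15 and H2AC15. Transcripts are summed by gene, and with its most abundant transcript alone H2BC15 would not lie to the right.

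RefSeq promoter entries matched 43 of the 47 genes, and the 250 bases before each start were searched on both strands, with the same search of 27305 promoters as the comparison. TATAAA was found before 32 of the 43 genes (74.4%) and 11.1% of all promoters, and 28 genes had it on their own strand between 40 and 20 bases before the start. CCAAT was found before 37 (86.0%, against 9021 of the 27305 promoters), namely all H1, H2A, H2B and H3 genes with an entry, and none of the 6 H4 genes. ATTTGCAT, the octamer bound by POU2F1, was found before 19 (44.2%, against 1.66%), in 8 of 12 H2A and 11 of 14 H2B genes and no gene of another family. AAACACA was found before all 4 H1 genes and no other histone gene (9.30%, against 4.95%). Partners of a head-to-head pair share a window, so their matches are not independent. These motifs were chosen after the sequences had been seen, a match is not evidence of binding, and no test was made. Exact letters alone were matched, so a gene without a match may still carry a variant of the motif.

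Genes with the same motifs could be at very different levels. H1-6, at 5.75 counts, carried the H1 box and a CCAAT match on its own strand as H1-2 and H1-4 did, at 54316 and 46236. H1-1, at 5.36 counts, had its H1 box on the opposite strand, and a CCAAT match and a TATAAA match (at -31 bases from the start) on its own. H2BC10 and H2BC1, at 5.04 and 12.5 counts, carried CCAAT and octamer matches on their own strand, and H2BC1 also TATAAA, at -32 bases from the start. TATAAA, as an exact match, was not found before 11 of the 43 genes. In H2A these were H2AC15 and H2AC16, the lowest genes of the family at 1608 and 6.30 counts. In H1 and H4 they took in the highest gene of the family as well as the low ones H1-6 and H4C15, with H1-2 in H1 and H4C14 and H4C8 in H4. H4C14 and H4C15 have identical windows, and H4C15 has no coding transcript among those listed, so its low level is uncertain. In H2B they were H2BC18, H2BC15 and H2BC10, at 10814, 3395 and 5.04 counts. H2BC18 was the highest H2B gene in summed counts and H2BC10 the lowest. In H3 the gene was H3C3.

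**Figure D4:**
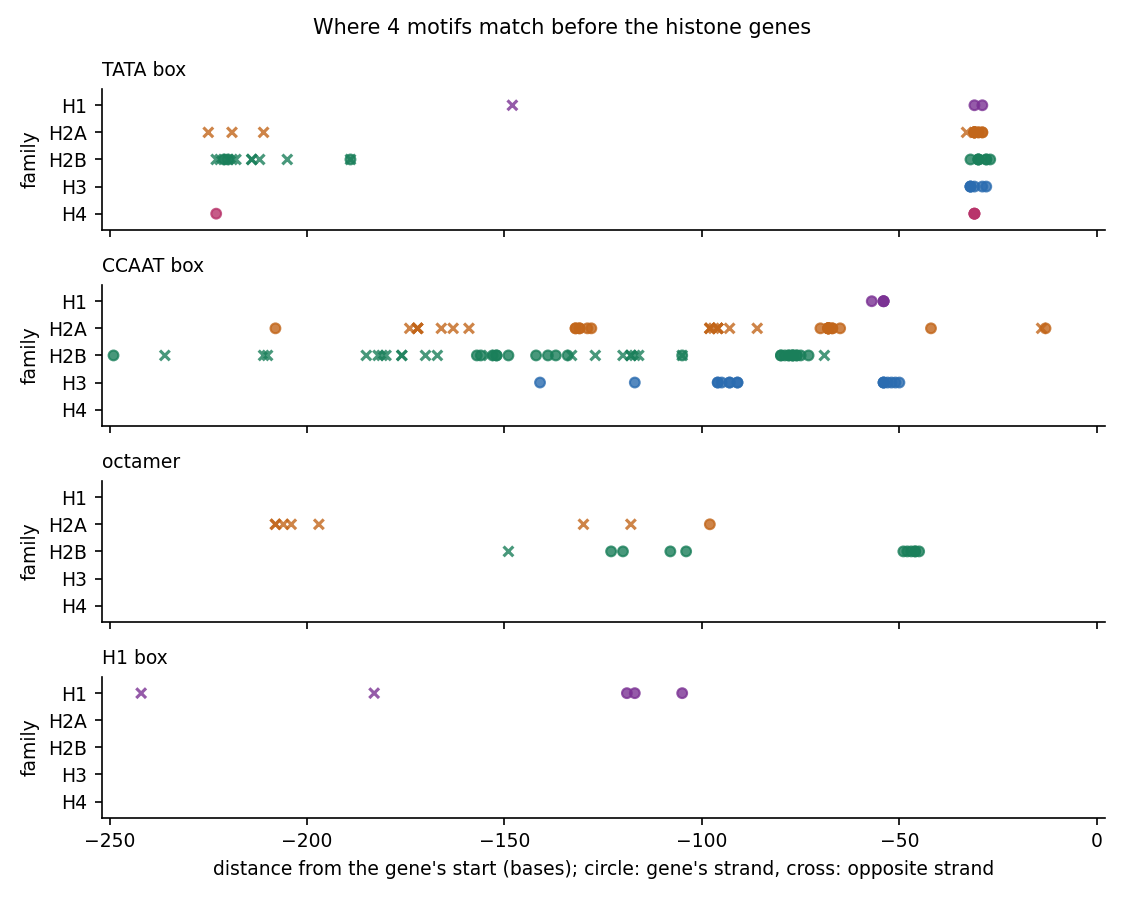
Distance in bases from the gene's start to each match of 4 motifs in the 250 bases before 43 histone genes, by family, on the gene's own strand (circle) or the opposite strand (cross). TATA matches on the gene's own strand gather 20 to 40 bases before the start (28 genes), the octamer appears in the H2A and H2B genes alone, and the H1 box in the H1 genes alone.

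Genes that act with the histone genes were listed from 5 groups and are given as counts not divided by length. Among the replication-independent histone variants, which are made outside S phase as well, CENPA, the H3 variant of the centromere, was at 533 mean normalized counts and H2AX, the variant that marks DNA breaks, at 23775. MACROH2A1 was at 8858, and H3-3B and H3-3A, which encode the same H3 variant, were at 4521 and 1210. The 5 transcription factors had a median of 1356, with NPAT at 1356, HINFP, the activator of H4 genes, at 1020, CASP8AP2, a component of histone locus bodies, at 1592, POU2F1 at 549 and YY1 at 4240. Among the 13 factors of histone pre-mRNA processing the median was 889. SLBP was at 2375, LSM10 and LSM11 of the U7 snRNP at 889 and 218, ZNF473 at 1086 and the scaffold SYMPK at 10040. The 6 decay factors had a median of 1473, with the helicase UPF1 at 12875 and the stem-loop exonuclease ERI1 at 392. The 10 histone chaperones had a median of 1590, from 99.7 for ASF1A to 9790 for CHAF1A, the large subunit of CAF-1. The genes H4-16 and H2BU1, named H4C16 and H2BC26 in RefSeq, were listed at 3098 and 7.20 counts.

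The cells were checked against markers of the line. VIM, the mesenchymal intermediate filament, stood at 80785 mean normalized counts, rank 21 of all genes, and CD44 at 14306, while the epithelial genes CDH1 and EPCAM were at 10.0 and 78.3. The receptor gene ERBB2, on the marker list as a low gene of the line, was at 4303, rank 1435 of all genes, against that list. SPARC, on the list as a high gene, was at 11.4, also against it. The hormone receptor genes ESR1 and PGR are not analysed here. YTHDC1 stood at 55488, rank 37, in cells that carry the transgene, and the table does not separate transgene reads from those of the endogenous gene.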

How the data were processed

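The RIP-seq libraries were 2 IP and 2 input libraries of MDA-MB-231 cells, described by the labels as biological replicates. According to the submitters' processing notes and the study's methods, the authors aligned reads with STAR 2.7.2b, estimated transcript counts with RSEM 1.2.31, checked quality with FastQC 0.11.5 and used GENCODE 33 on GRCh38. Low transcripts were removed by the authors, who asked for 5 or more reads in 50% or more of the samples, and the methods name RUVSeq. The deposited table is a DESeq2 result made by the authors, and its mean column is a signal, the normalized count averaged over all 4 libraries. Its 4 comparison columns (log2 fold change, standard error, p-value and adjusted p-value of IP against input) hold the authors' own comparison and were neither used nor printed.

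Depth per library is unknown, so no interval or detection floor was given. A transcript that failed the authors' filter has no row. Transcript values were summed by gene. Gene spans, positions, strands and promoters came from RefSeq GRCh38.p14, and spans replaced the coding lengths planned for scaling. A level per protein was not computed, since no protein table was used here. Every histone gene could be named; values were given for the 3 highest and the lowest genes of a family, genes with several transcripts, head-to-head pairs and the genes of fixed lists, and the values of the other members were added after they were seen. Near-identical copies were compared by the longest shared run of bases. One item of the fixed lists is not reported here. The members and lists were chosen with earlier results of these data known. Scripts used Python 3.11.15, pandas 2.3.3 and numpy 2.4.6, and the counting and motif steps were tested on simulated data.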

Additional observations from a re-analysis of the deposited data

How the results depend on the processing

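No paired analysis was possible because the table holds no value per library, and for the same reason leaving out replicates, other normalizations and a replicate block were not run. The level per protein and scaling by coding length were not run either. The summed level of 294963 mean normalized counts became 287631 with protein-coding transcripts alone and 298069 with the genes outside the name rule. The median gene level of 3395 became 3339 with the most abundant transcript alone, 3560 with protein-coding transcripts alone, 4232 with a minimum of 10 counts per transcript and 4904 with a minimum of 100. Without length scaling, over the same 41 genes, the family shares were 38.9% for H1, 29.2% for H2A, 16.5% for H3, 9.16% for H4 and 6.26% for H2B, so that H1 and not H2A held the largest share. With the most abundant transcript alone, the shares per kilobase were 29.2% for H1, 32.7% for H2A, 18.6% for H3 and 6.48% for H2B. The mean over 4 libraries also limits the data, since a level in it may come from IP, input or both.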
